A study of Homo sapiens with 12 samples.

Results

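The 10 transcripts described here encode the core of the human small RNA machinery. They are the 4 Argonaute genes (AGO1, AGO2, AGO3 and AGO4), the 3 genes of the GW182 scaffold proteins (TNRC6A, TNRC6B and TNRC6C), and the processing and export genes DROSHA, XPO5 and DICER1. They were chosen by name and not by their measured values, although earlier results of these data were known. They make up 10 of the 29972 gene rows in each of the authors' deposited tables. All 10 were found, and all 10 had an adjusted p in both cell lines, so none was lost to the filter on low counts.

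The libraries hold messenger RNA of the triple-negative breast cancer lines MDA-MB-436 and BoM-1833; the latter is known as a bone-seeking line. Cells were reverse transfected with a lipid reagent at 5 nM small interfering RNA (siRNA) in all, and used 72 h later. The siNT groups received a commercial pool of non-targeting siRNAs, and the siPHF19 groups received 2 siRNAs against PHF19, in equal parts and from another supplier. Each of the 4 groups (MDA-MB-436 siNT, MDA-MB-436 siPHF19, BoM-1833 siNT and BoM-1833 siPHF19) had 3 libraries. PHF19 is a Polycomb-like accessory subunit of the repressive complex PRC2. Every group was transfected with siRNA, so the comparison of siPHF19 with siNT does not measure the effect of transfection itself. Loss of PHF19 and the difference in siRNA sequence and supplier cannot be told apart, since the PHF19 siRNAs were used as 1 mixture. The labels do not say whether the libraries of a group came from separate cultures, so p-values measure only the spread between these libraries.

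In the cell's own microRNA pathway, DROSHA cuts hairpin precursors out of primary transcripts in the nucleus, XPO5 carries them to the cytoplasm and DICER1 cuts them to short duplexes. A transfected siRNA enters after those steps. One strand of either kind of duplex is loaded, with the help of heat shock chaperones, into an Argonaute protein. Of the Argonautes, AGO2 is the one best known for slicing a fully matched target such as the PHF19 mRNA. All 4 can repress partly matched targets through the GW182 proteins, which bind Argonaute and recruit the deadenylases that shorten the poly(A) tail. The transcripts measured here say nothing of protein levels or of how many Argonaute molecules carried the transfected strands.

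Libraries held 15.2 to 24.0 M reads in genes in MDA-MB-436 and 13.7 to 21.3 M in BoM-1833. The labelled cell type was checked with marker genes in CPM, counts scaled to 1 M reads in genes per library. VIM, CD44, AXL and CAV1 lay between 187 and 4546 in all libraries, and the receptor genes ESR1 and PGR were at or under 0.241. The third receptor gene, ERBB2, lay between 48.7 and 69.8, while GATA3 reached 9.86 in BoM-1833 and FOXA1 7.86 in MDA-MB-436. Epithelial KRT8 (53.8 to 886) and KRT18 (255 to 664) were also present, with EPCAM at up to 8.18 and CDH1 at up to 1.67. Of 7 immune, endothelial and bone cell markers, CD3E was at 0 in every library and the highest was PECAM1, at up to 24.0 in BoM-1833. The targeted transcript, PHF19, was left at 9.75% of its siNT mean in MDA-MB-436 and at 10.9% in BoM-1833, so knockdown was measured in both lines.

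Of the Argonaute genes, 3 are neighbours. AGO4 (chr1:35808172-35857890), AGO1 (chr1:35869808-35930528) and AGO3 (chr1:35930718-36072500) lie in this order on the plus strand of chromosome 1 (GRCh38). From the end of AGO4 to the start of AGO1 there are 11917 bases, and from the end of AGO1 to the start of AGO3 there are 189. AGO2 lies on another chromosome. TNRC6A is on chromosome 16 (24610209 to 24827632), TNRC6B on chromosome 22 (40044817 to 40335808) and TNRC6C on chromosome 17 (77959240 to 78108835), all on the plus strand. DROSHA (chromosome 5, 31400497 to 31532196), XPO5 (chromosome 6, 43522330 to 43576075) and DICER1 (chromosome 14, 95086228 to 95158010) are on minus strands. Each except AGO4 overlaps an annotated gene on the other strand, among them TNRC6C-AS1, DICER1-AS1 and POLR1C. The use of strand in counting is not given in the sources used here, so reads from such overlaps could fall to either gene.

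The sequences shown first are short stretches of the 3′ untranslated regions (UTRs) of AGO4 and TNRC6A, which had the smallest adjusted p among members called higher, and of DICER1, the only member called lower. The capitals mark AAACTG, a sequence of 6 bases that was searched because an earlier analysis of these same data had used it. Its frequency in genes that rose or fell after siPHF19 was not tested here. The sequences of the siRNAs themselves were not used here, so a match is a description and not a target site. AGO4 holds 2 copies, at chr1:35854904-35854929 and chr1:35855278-35855303.
AGO4 site 1: tattaaactaAAACTGtgtggaaaag
AGO4 site 2: ccctgcctggAAACTGctggtgggga
TNRC6A also holds 2, at chr16:24824435-24824460 and chr16:24825625-24825650.
TNRC6A site 1: gcagtttgaaAAACTGtggccacagc
TNRC6A site 2: gaacaatgggAAACTGtagcttgctc
DICER1 holds 4 on the minus strand, at chr14:95089769-95089794, chr14:95089280-95089305, chr14:95088747-95088772 and chr14:95086979-95087004.
DICER1 site 1: tttttggaacAAACTGttttacattc
DICER1 site 2: cgtttgcgatAAACTGccgtaatttt
DICER1 site 3: caccgacagaAAACTGtcagctctgc
DICER1 site 4: tgaagccaccAAACTGagaccttgat

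Only the strand of the transcript was searched. AGO3, AGO4 and TNRC6A, called higher in MDA-MB-436, hold the sequence, and so does DICER1, called lower in BoM-1833. It occurs 11 times in the 3′ UTR of AGO2, 6 times in AGO3, 4 times each in TNRC6B, TNRC6C and DICER1, 3 times in AGO1, 2 times each in AGO4 and TNRC6A, and 0 times in DROSHA and XPO5. A copy was present in 43.2% of the 3′ UTRs of genes tested in MDA-MB-436 and in 43.7% of those tested in BoM-1833. These UTRs are long, which gives more room for any 6 bases: that of AGO3 is 16.8 kb and that of AGO2 11.9 kb, against medians of 1145 and 1149 bases over the tested genes. Per kb, AGO2 holds 0.925 copies, DICER1 0.937 and TNRC6C 1.00, while AGO1 holds 0.275 and TNRC6B 0.318. Over all tested genes together the density was 0.470 per kb for MDA-MB-436 and 0.476 for BoM-1833.

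The promoters of AGO4 and TNRC6A are shown because these transcripts had the smallest adjusted p among members called higher. CG dinucleotides are marked because Polycomb-like proteins such as PHF19 are known to bind unmethylated DNA that holds them. Both are the RefSeq windows (GRCh38.p14, plus strand) from 250 bases before to 50 after the gene's start, at chr1:35807766-35808065 and chr16:24729401-24729700, with each CG in capitals. The RefSeq start of TNRC6A lies inside the longer span given above from GENCODE.
AGO4 promoter: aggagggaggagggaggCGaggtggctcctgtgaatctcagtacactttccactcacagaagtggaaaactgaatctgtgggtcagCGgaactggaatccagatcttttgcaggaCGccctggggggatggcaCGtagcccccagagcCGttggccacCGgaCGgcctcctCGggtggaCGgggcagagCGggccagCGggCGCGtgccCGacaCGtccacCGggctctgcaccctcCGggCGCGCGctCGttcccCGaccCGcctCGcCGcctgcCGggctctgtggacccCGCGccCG
TNRC6A promoter: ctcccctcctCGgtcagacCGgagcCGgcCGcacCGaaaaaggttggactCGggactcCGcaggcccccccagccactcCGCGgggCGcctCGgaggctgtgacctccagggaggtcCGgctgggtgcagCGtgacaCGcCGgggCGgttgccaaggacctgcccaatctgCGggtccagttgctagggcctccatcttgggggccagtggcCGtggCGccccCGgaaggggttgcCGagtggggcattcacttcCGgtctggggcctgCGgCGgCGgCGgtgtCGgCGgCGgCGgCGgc

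The dinucleotide CG reads the same on both strands. It occurs 29 times in the AGO4 window and 31 times in that of TNRC6A, against a median of 26 in the promoters of genes tested in a line and 14 over all 27305 promoters. At least 29 copies were present in 42.2% of the promoters of tested genes and at least 31 in 36.0%, so these windows are common in CG content among expressed genes. The other members ranged from 10 copies (TNRC6C) to 50 (AGO3). As many as in AGO3, also called higher in MDA-MB-436, were present in 2.25% of the promoters of tested genes. DICER1, called lower in BoM-1833, had 37, and 19.5% had as many. AGO2 had no entry. No binding or methylation data are part of the comparison.

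After siPHF19, AGO4, TNRC6A and AGO3 were called higher in MDA-MB-436, and DICER1 was called lower in BoM-1833. A gene was called where the adjusted p in the authors' deposited table was under 0.05. In MDA-MB-436 this took in 3 of 10 members, against 22.1% of the 14243 genes tested, where 10.5% were called higher and 11.5% lower. In BoM-1833 it took in 1 of 10, against 10.9% of 12906 genes, where 5.21% were called higher and 5.72% lower. With 10 members these shares lie near those of all genes. At an unadjusted p under 0.05 there were 5 members for MDA-MB-436 and 4 for BoM-1833. Of all genes tested, 4639 of 14243 and 2765 of 12906 had such a p, so it was common. No member was called in both lines. The counts depended on single libraries. In MDA-MB-436 5 members were called without siNT replicate 3 and 2 without any other library. In BoM-1833 3 were called without siNT replicate 1 and 0 without any other. All these fits were by DESeq2, and the share of all genes called in each is not given here. The median log2 fold change of the members was 0.13 for MDA-MB-436 and -0.04 for BoM-1833, and the median over all tested genes was -0.00224 and -0.00354.

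**Figure D1:**
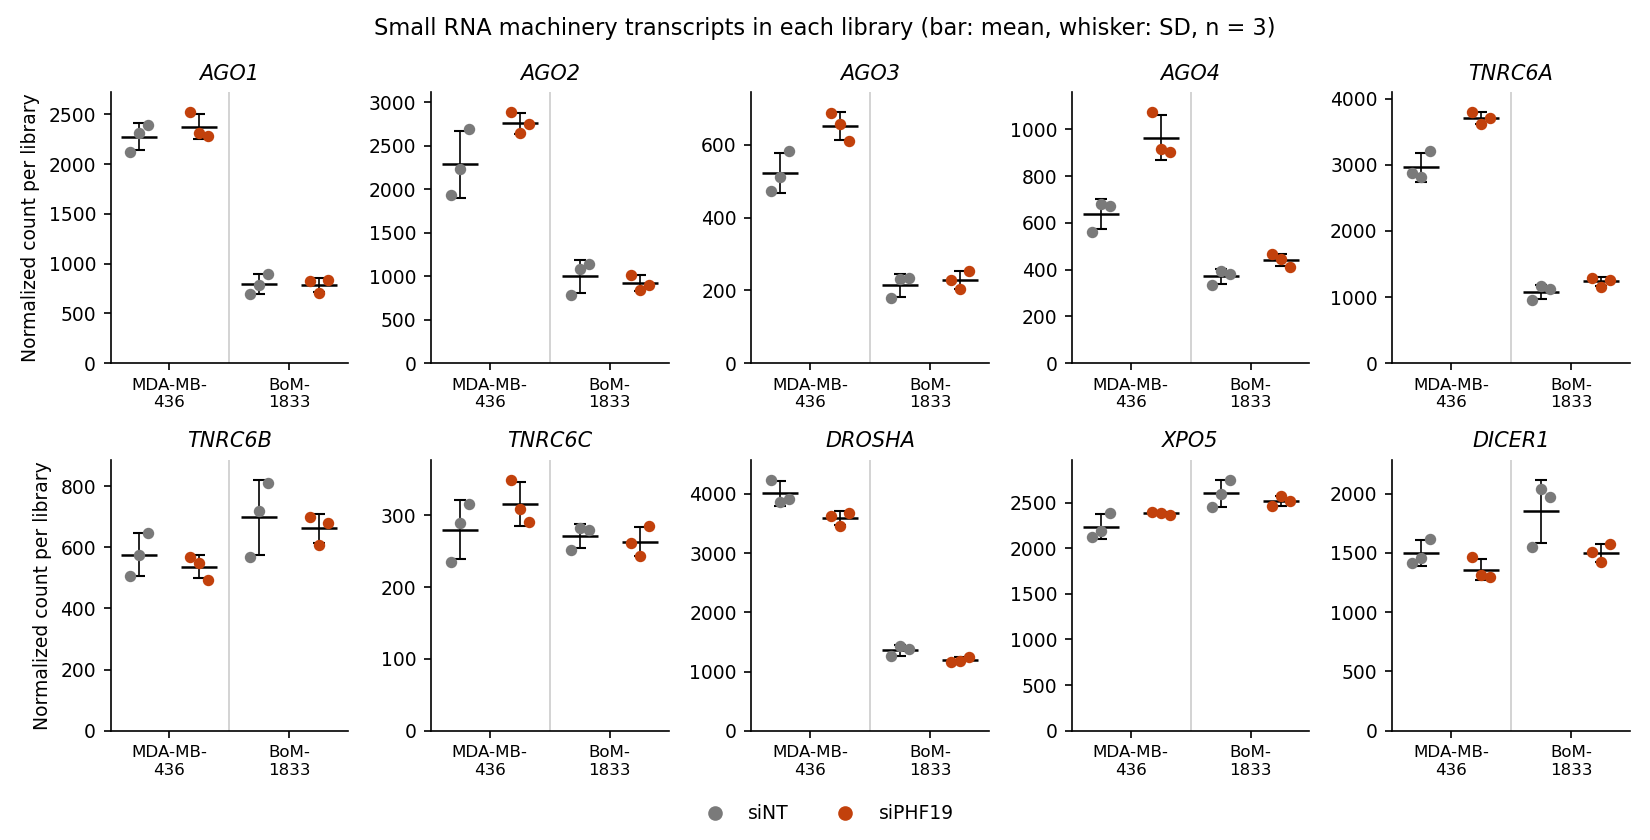
Normalized count (reads divided by the size factor of the library, linear axis from 0) of each of the 10 transcripts in the 12 libraries. Grey points are siNT and orange points siPHF19 libraries, in the order of replicates 1 to 3; bars are means and whiskers SD (n = 3). In MDA-MB-436 the 3 siPHF19 libraries of AGO4 (903 to 1074) lie above the 3 siNT libraries (562 to 680.5).

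Among the Argonaute genes AGO4 showed the largest rise. In MDA-MB-436 the siNT libraries had normalized counts of 562, 680.5 and 671, replicates 1 to 3 in that order as in all such lists here, and the siPHF19 libraries had 1074, 918 and 903. Every siPHF19 library was above every siNT library. The mean went from 638 ± 65.9 to 965 ± 94.7 (SD, n = 3), which is 1.51-fold. The log2 value in the authors' deposited table was 0.59 (adjusted p 2.33e-06, SE 0.11). Leaving out any 1 of the 6 libraries kept the call, with values of 0.51 to 0.65.

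AGO4 did not pass the test in BoM-1833. There its normalized count was 337, 397 and 382 in siNT and 466, 447 and 412 in siPHF19, so the groups again did not overlap. The means were 372 ± 31.2 and 442 ± 27.3 (SD, n = 3). The deposited log2 fold change in the authors' deposited table was 0.25 (adjusted p 0.170, SE 0.12), which misses the threshold.

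AGO3 was also called higher in MDA-MB-436, on thinner evidence. Its normalized count was 473, 511 and 582 in siNT and 687, 656 and 609 in siPHF19. The groups did not overlap, although siNT replicate 3 came close to siPHF19 replicate 3. Means were 522 ± 55.6 and 651 ± 39.0 (SD, n = 3), a ratio of 1.25. For AGO3 the authors' deposited table gives 0.32 on the log2 scale (adjusted p 0.0211, SE 0.11). The call was kept without siNT replicate 3 (adjusted p 0.00306), and lost when any other single library was left out, with DESeq2 adjusted p-values of 0.0536 to 0.191. In BoM-1833 AGO3 stood at 179, 231 and 233 in siNT and at 229, 204 and 252 in siPHF19, with overlapping groups and an adjusted p of 0.812 in the authors' deposited table.

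AGO2, the slicing Argonaute, was not called in either line. Its gene lies on the minus strand of chromosome 8 (GRCh38), from 140520156 to 140635619. Its MDA-MB-436 libraries had normalized counts of 1929, 2234 and 2693 in siNT and 2885, 2646 and 2745 in siPHF19. The siNT libraries were spread widely, and siNT replicate 3 lay within the range of siPHF19. The log2 value in the authors' deposited table was 0.27 (adjusted p 0.0603, SE 0.11). Without siNT replicate 3, AGO2 was called, at 0.40 (DESeq2 adjusted p 1.47e-05). In BoM-1833 the counts were 780.3, 1083 and 1136 in siNT and 1018, 837 and 903 in siPHF19. Here siNT replicate 1 was the lowest of all 6 libraries, and the deposited estimate in the authors' deposited table was -0.12 (adjusted p 0.665, SE 0.12). Without that library AGO2 was called lower, at -0.27 (DESeq2 adjusted p 0.0298).

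AGO1, whose gene lies between those of AGO4 and AGO3, was not called in either line. Its normalized count in MDA-MB-436 was 2125, 2314 and 2390 in siNT and 2522, 2317 and 2287 in siPHF19. In BoM-1833 it was 697, 790.3 and 893 in siNT and 822, 705 and 832 in siPHF19. Groups overlapped in both lines. The authors' deposited table lists 0.06 (95% interval -0.09 to 0.22, adjusted p 0.641) and -0.01 (95% interval -0.22 to 0.20, adjusted p 0.980). The 3 neighbouring genes thus had estimates of 0.59, 0.06 and 0.32 in MDA-MB-436, in the order AGO4, AGO1 and AGO3, in the authors' deposited table.

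TNRC6A was the GW182 gene that rose. Its protein carries Argonaute-binding repeats and a silencing domain that contacts the poly(A)-binding protein and the CCR4-NOT deadenylase. In MDA-MB-436 the normalized count was 2871, 2810.4 and 3216 in siNT and 3797, 3625 and 3708 in siPHF19, with no overlap. The mean went from 2966 ± 219 to 3710.0 ± 86.3 (SD, n = 3), 1.25-fold. TNRC6A had a log2 fold change of 0.32 (adjusted p 2.02e-04, SE 0.07) in the authors' deposited table. Leaving out single libraries gave 0.29 to 0.39 with the call kept in 6 of 6 fits. In BoM-1833 the counts were 961, 1167 and 1117 in siNT and 1296, 1157 and 1263 in siPHF19. The groups overlapped by siNT replicate 2 alone, and the authors' deposited table gives 0.20 (adjusted p 0.164, SE 0.09).

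The other GW182 genes did not pass the test. TNRC6B stood at 505, 576 and 647 in siNT and at 567, 549 and 493 in siPHF19 of MDA-MB-436. In BoM-1833 it stood at 567, 718 and 809.9 in siNT and at 697, 607 and 679.9 in siPHF19. TNRC6B was scattered among siNT libraries of both lines, with replicate 1 lowest and replicate 3 highest. The authors' deposited table lists -0.10 (adjusted p 0.601, SE 0.12) and -0.08 (adjusted p 0.810, SE 0.12) for TNRC6B. TNRC6C ranged from 235 to 316 in siNT and from 290.4 to 350.0 in siPHF19 of MDA-MB-436, and from 252 to 283 and from 244 to 285 in BoM-1833. For it the authors' deposited table has 0.18 (adjusted p 0.431, SE 0.15) and -0.04 (adjusted p 0.920, SE 0.14).

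DICER1 was the only member called in BoM-1833, where it was lower. Its normalized count there was 1546, 2038 and 1969 in siNT and 1511, 1419 and 1572 in siPHF19. The groups overlapped, because siNT replicate 1 was under siPHF19 replicate 3. The mean was 1851 ± 266 in siNT and 1501 ± 77.3 in siPHF19 (SD, n = 3), a ratio of 0.811. In the authors' deposited table the log2 fold change was -0.30 (adjusted p 0.0194, SE 0.10). The call rested on the tool and the libraries: edgeR gave an adjusted p of 0.0545, and in DESeq2 the call was kept without siNT replicate 1 (-0.42, adjusted p 9.69e-08) and lost without any other library (adjusted p 0.0526 to 0.235).

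In MDA-MB-436 DICER1 stood at 1417, 1454 and 1620.4 in siNT and at 1462, 1312 and 1300.1 in siPHF19. These groups overlapped, and the authors' deposited table gives -0.14 (adjusted p 0.272, SE 0.09).

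DROSHA was lower in every siPHF19 library than in every siNT library of the same line, without passing the adjusted threshold in either. Its normalized count in MDA-MB-436 was 4242, 3863 and 3918 in siNT and 3629, 3458 and 3682 in siPHF19. In BoM-1833 it was 1262, 1429 and 1379 in siNT and 1168, 1178 and 1251 in siPHF19. The differences were small beside the levels, at ratios of 0.896 and 0.884. The authors' deposited table gives -0.16 (adjusted p 0.0829, SE 0.07) and -0.18 (adjusted p 0.149, SE 0.08). DROSHA was called lower in MDA-MB-436 without siNT replicate 3 (DESeq2 adjusted p 0.0489) and in BoM-1833 without siNT replicate 1 (DESeq2 adjusted p 0.0196).

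Non-overlap of this kind was common. It was found for AGO3, AGO4, TNRC6A and DROSHA in MDA-MB-436 and for AGO4 and DROSHA in BoM-1833, that is for 4 of 10 and 2 of 10 members. Of all tested genes, 42.2% for MDA-MB-436 and 31.0% for BoM-1833 had groups that did not overlap.

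XPO5, the export receptor, had nearly level counts. They were 2121, 2193 and 2390 in siNT and 2397, 2383 and 2367 in siPHF19 of MDA-MB-436, and 2453, 2593 and 2751 in siNT and 2458, 2571 and 2520.3 in siPHF19 of BoM-1833. Groups overlapped in both lines. The authors' deposited table gives 0.09 (95% interval -0.05 to 0.24, adjusted p 0.397) and -0.05 (95% interval -0.18 to 0.09, adjusted p 0.785).

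**Figure D2:**
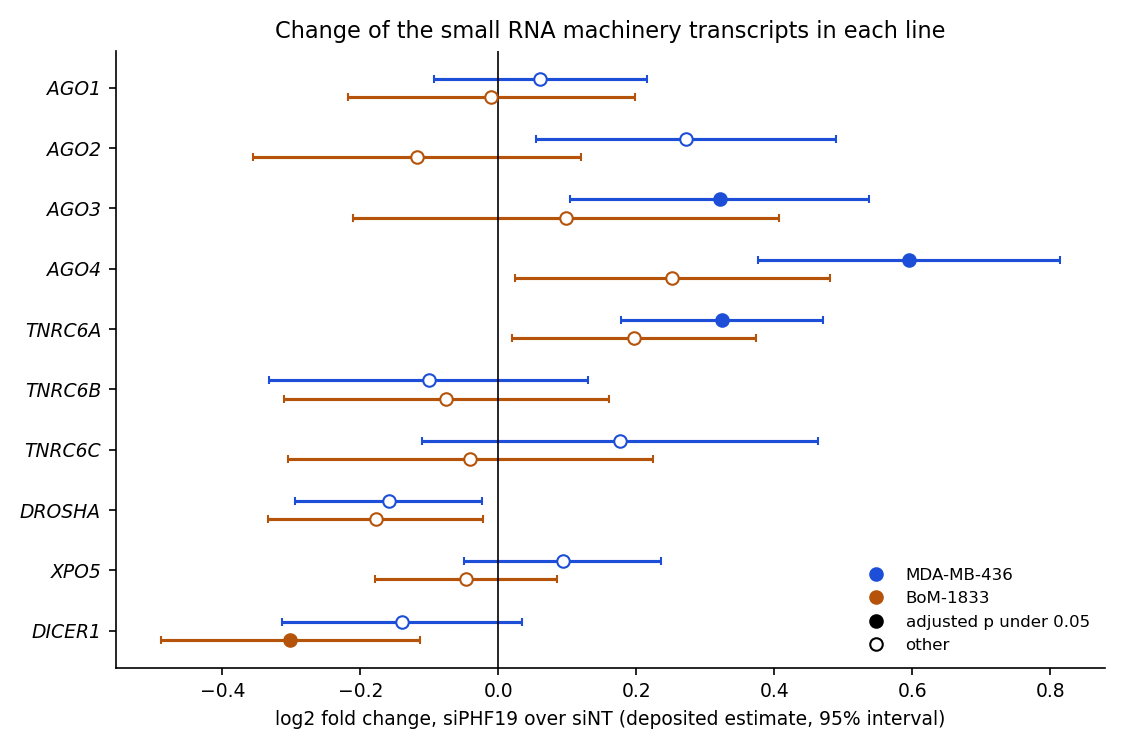
Log2 fold change of siPHF19 over siNT for each transcript in the authors' deposited tables, with 95% intervals, in MDA-MB-436 (blue) and BoM-1833 (brown). Filled points have an adjusted p under 0.05: AGO3, AGO4 and TNRC6A in MDA-MB-436 and DICER1 in BoM-1833.

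Of the 10 members, 0 passed the test of a difference in response between the lines. This test divides the difference of the deposited log2 fold changes by its standard error and adjusts over 12290 genes tested in both lines, of which 4.89% were called. AGO2 differed most, by 0.39 (MDA-MB-436 minus BoM-1833, 95% interval 0.07 to 0.71, adjusted p 0.182 from the z test on deposited values). AGO4 was next, by 0.34 (95% interval 0.03 to 0.66, adjusted p 0.258 from the same z test). These were the 2 members with an unadjusted p under 0.05. Joint fits of all 12 libraries with an interaction term also called 0 of 10 members, in DESeq2 and in edgeR. AGO2 was called different without siNT replicate 3 of MDA-MB-436 (0.52, adjusted p of the z test 0.00865) or without siNT replicate 1 of BoM-1833 (0.54, adjusted p of the z test 0.00577). For TNRC6A the difference was 0.13 (95% interval -0.10 to 0.36) and for DROSHA 0.02 (95% interval -0.19 to 0.23). A rise particular to MDA-MB-436 was therefore not shown for AGO4 or TNRC6A.

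The siNT libraries spread in a way that followed transcript length, and all 10 members have long transcripts. Their annotated transcripts run from 5.3 kb (DROSHA) to 19.7 kb (AGO3), against a median of 3173 bases over genes tested in MDA-MB-436, or 3218 bases in BoM-1833. Only 24.2% and 24.6% of tested genes reach 5 kb. For each library the median deviation from the gene's mean over the 6 libraries of the line was taken, on the log2(count + 1) scale, over the other genes of at least 5 kb. In siNT replicate 1 it was -0.12 for MDA-MB-436 and -0.10 for BoM-1833, and in siNT replicate 3 it was 0.07 and 0.09. The members went the same way: their median was -0.17 and -0.21 in siNT replicate 1 and 0.05 and 0.11 in siNT replicate 3. In siNT replicate 1 of BoM-1833 all 10 members lay under their own mean.

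**Figure D3:**
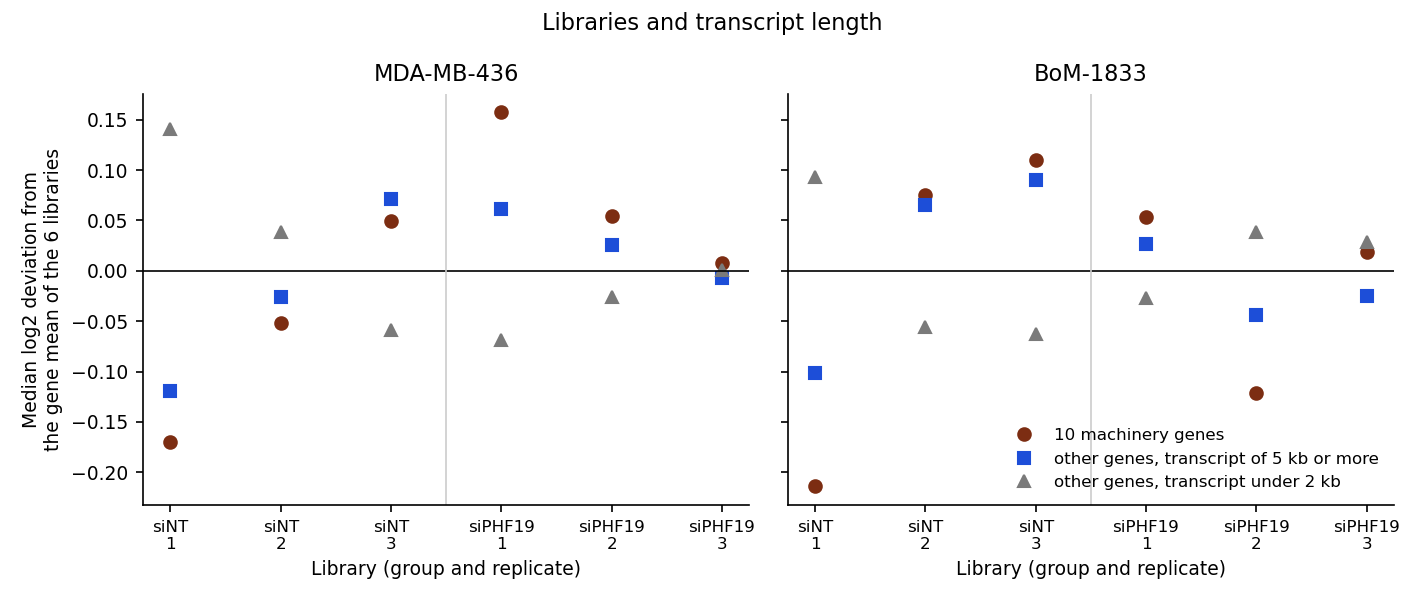
Median log2 deviation of each library from the gene's mean over the 6 libraries of its line, for the 10 machinery genes (brown circles), other genes with transcripts of 5 kb or more (blue squares) and other genes under 2 kb (grey triangles). siNT replicate 1 is lowest for long transcripts in both lines (-0.12 and -0.10), where short transcripts are highest (0.14 and 0.09).

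The median log2 fold change of the other genes of at least 5 kb was 0.05 for MDA-MB-436 and -0.03 for BoM-1833. For other genes under 2 kb it was -0.08 and 0.02. In MDA-MB-436 14.6% of these long genes were called higher and 10.9% lower, against 10.5% and 11.5% of all tested genes. In BoM-1833 4% were called higher and 8.75% lower, against 5.21% and 5.72%. The members' medians, 0.13 and -0.04, had the same signs as those of long genes. When the length trend of each library was taken out by an offset in DESeq2, an alternative chosen after the data were seen, AGO4 in MDA-MB-436 stood at 0.54 (adjusted p 3.32e-07) and TNRC6A at 0.26 (adjusted p 3.57e-04). AGO3 stood at 0.27 (adjusted p 0.0215). With the offset 6 of 10 members were called in MDA-MB-436, against 24.6% of all tested genes. AGO2 (0.22, DESeq2 adjusted p 0.00858) was added to the higher ones, and DROSHA (-0.20, DESeq2 adjusted p 0.0307) and DICER1 (-0.20, DESeq2 adjusted p 0.0269) were called lower.

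With the same offset 3 of 10 members were called in BoM-1833, against 15.3% of all tested genes. AGO4 (0.28, DESeq2 adjusted p 0.0455) and TNRC6A (0.24, DESeq2 adjusted p 0.00538) were higher and DICER1 (-0.24, DESeq2 adjusted p 0.00348) was lower. AGO4, TNRC6A and DICER1 were therefore called in the same direction in both lines in these fits. The share of all genes called in both lines in them is not given here, so this is not shown as particular to the members. When the replicate block was added to the offset, none of them was called in BoM-1833. How much of the spread among siNT libraries came from RNA quality or library preparation was not tested.

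The siNT libraries also show the level of each member before any loss of PHF19, here in CPM. The tables of the lines were normalized separately, so this is a description. Of the members, 6 were higher in MDA-MB-436 with no overlap of the siNT libraries. DROSHA stood at 213 ± 7.35 for MDA-MB-436 and 81.0 ± 5.87 for BoM-1833 (SD, n = 3), a ratio of 2.63. AGO1 stood at 121 ± 9.18 and 47.4 ± 5.89 (ratio 2.56), TNRC6A at 158 ± 13.1 and 64.6 ± 6.98 (ratio 2.45), AGO3 at 27.8 ± 3.34 and 12.8 ± 1.91 (ratio 2.18), AGO2 at 122 ± 22.2 and 59.7 ± 11.7 (ratio 2.04) and AGO4 at 34.0 ± 4.04 and 22.2 ± 2.06 (ratio 1.53).

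DICER1 and XPO5 were on the other side. XPO5 stood at 119 ± 8.99 for MDA-MB-436 and 155 ± 9.18 for BoM-1833, and DICER1 at 79.8 ± 6.76 and 111 ± 16.7 (SD, n = 3), with no overlap for either. TNRC6B and TNRC6C overlapped between the lines. In 80.3% of 12290 genes the siNT libraries of the lines did not overlap, so 8 of 10 members is near that share. All 4 Argonaute genes and TNRC6A were thus higher in MDA-MB-436, while the median log2 ratio of all genes was -0.02. Differences of this size were common. An absolute log2 ratio at least as large was found in 21.1% of genes for AGO1 and 23.0% for TNRC6A. For AGO3, AGO2 and AGO4 the shares were 28.5%, 32.5% and 54.6%.

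To compare members with each other, CPM values were divided by the kb of the whole annotated transcript. On this per-length scale DROSHA was highest in MDA-MB-436 siNT at 40.2 ± 1.39, followed by XPO5 at 22.2 ± 1.68 and TNRC6A at 18.7 ± 1.55 (SD, n = 3). In BoM-1833 siNT the order was XPO5 at 28.9 ± 1.71, DROSHA at 15.3 ± 1.11 and DICER1 at 10.7 ± 1.62 (SD, n = 3). AGO3 was lowest in both, at 1.41 ± 0.170 and 0.649 ± 0.0969 (SD, n = 3). In MDA-MB-436 AGO2 (8.36 ± 1.52) lay within its SD of AGO1 (8.85 ± 0.670) and of DICER1 (7.73 ± 0.655). The order depended on the length used. Per kb of coding sequence DROSHA led in MDA-MB-436 siNT at 51.8 ± 1.78, followed by AGO2 at 47.3 ± 8.60 and AGO1 at 47.2 ± 3.57 (SD, n = 3). In BoM-1833 siNT XPO5 led on that scale at 43.0 ± 2.54, followed by AGO2 at 23.2 ± 4.56 and DROSHA at 19.7 ± 1.42 (SD, n = 3). TNRC6C was then lowest in both, at 2.89 ± 0.468 and 3.13 ± 0.223, and AGO3 stood at 10.8 ± 1.29 and 4.96 ± 0.739 (SD, n = 3).

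Within the Argonaute family, AGO1 and AGO2 made up most of the per-length level. In MDA-MB-436 siNT AGO1 held 38.0% ± 1.81, AGO2 35.6% ± 2.35, AGO4 20.4% ± 1.03 and AGO3 6.04% ± 0.167 (SD, n = 3). In BoM-1833 siNT AGO2 held 36.0% ± 2.32, AGO1 30.6% ± 1.465, AGO4 27.7% ± 1.87 and AGO3 5.73% ± 0.126 (SD, n = 3). The order of AGO1 and AGO2 in MDA-MB-436 is within their SDs. These shares depend on the transcript taken: per kb of coding sequence, AGO4 held 11.1% ± 0.637 for MDA-MB-436 and 15.7% ± 1.23 for BoM-1833. Its 3′ UTR is the shortest of the 4.

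TNRC6A held the largest share of the GW182 family, per kb of whole transcript and of coding sequence. Per kb of whole transcript it held 85.3% ± 1.25 of the family's level in MDA-MB-436 siNT and 65.8% ± 1.39 in BoM-1833 siNT (SD, n = 3). TNRC6B held 7.78% ± 0.521 and 19.9% ± 1.80, and TNRC6C 6.96% ± 0.730 and 14.3% ± 0.645. Per kb of coding sequence TNRC6A held 75.3% ± 1.75 and 49.6% ± 1.91, TNRC6B 16.6% ± 0.976 and 36.2% ± 2.60, and TNRC6C 8.06% ± 0.781 and 14.2% ± 0.841 (SD, n = 3).

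The partners of the machinery were taken from lists of 99 genes, of which 94 were found in the tables. The other 5, all microRNA host transcripts, were not found under the names used. In MDA-MB-436 22 of 87 tested partners were called, 10 higher and 12 lower, and in BoM-1833 9 of 84, 3 higher and 6 lower. These are 25.3% and 10.7%, beside 22.1% and 10.9% of all genes. Without siNT replicate 3 the count in MDA-MB-436 was 34 and without siPHF19 replicate 3 it was 14. Without siNT replicate 1 that in BoM-1833 was 17. The share of all genes called in each fit without a library is not given here. All 9 called in BoM-1833 were called in MDA-MB-436 too, and in the same direction. How often this held over all genes called in BoM-1833 is not given here, so it is not shown as particular to the partners. MOV10, AJUBA and ANKRD52 were higher, and HSP90AA1, HSPA4, CSNK1A1, FMR1, CNOT6 and ERI1 were lower. CSNK1A1, FMR1 and MOV10 are named because they are among these 9, after their values were seen.

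**Figure D4:**
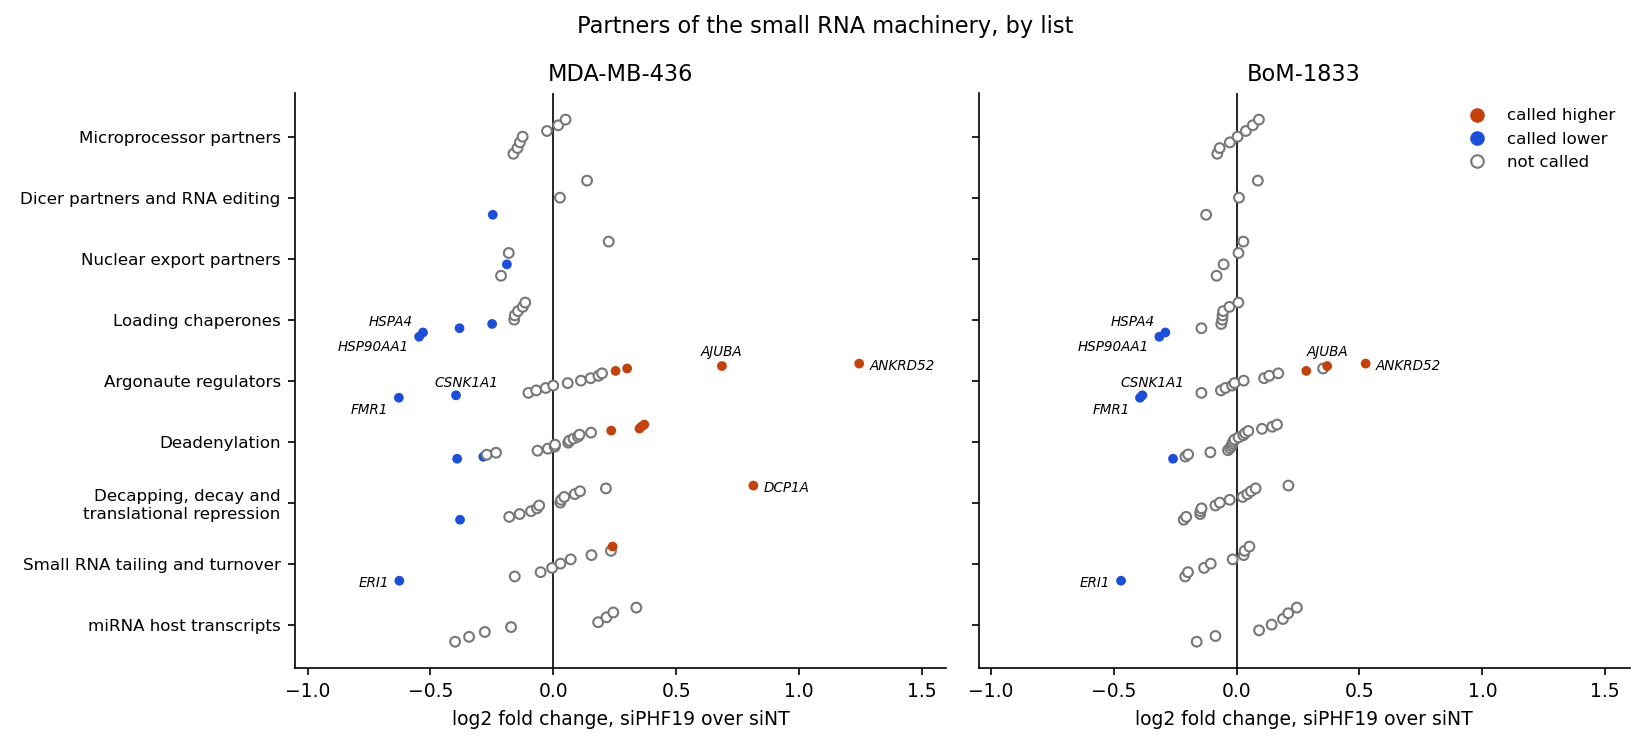
Log2 fold change of siPHF19 over siNT in the authors' deposited tables for tested partners of the machinery, 1 point a gene, by list. Orange points were called higher, blue points lower and open points not called. ANKRD52 lies farthest to the right in both lines (1.25 and 0.53), and the called loading chaperones lie to the left.

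ANKRD52, a subunit of the PP6 phosphatase that removes phosphates from Argonaute between rounds of target binding, rose most among the partners. Its MDA-MB-436 libraries had normalized counts of 2290, 2666 and 2761 in siNT and 6225, 5809 and 6263 in siPHF19. In BoM-1833 it was 1913, 2104 and 2194 in siNT and 3075, 2879 and 2978 in siPHF19. Groups were far apart in both. ANKRD52 had log2 fold changes of 1.25 (adjusted p 9.13e-47, SE 0.08) and 0.53 (adjusted p 1.31e-11, SE 0.07) in the authors' deposited table. CSNK1A1, the casein kinase that places those phosphates on AGO2, fell by 0.40 and 0.38 on the log2 scale (adjusted p 7.43e-08 and 5.77e-08) in the authors' deposited table. Pseudogenes of CSNK1A1 exist and could share reads with it. ANKRD52 holds 1 copy of AAACTG in its 3′ UTR, or 0.187 per kb, against 0.470 per kb over all genes tested in MDA-MB-436.

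Of 15 Argonaute regulators, 4 were called higher and 2 lower in MDA-MB-436, and 3 higher and 2 lower in BoM-1833. These are 40.0% and 33.3% of the list, beside 22.1% and 10.9% of all tested genes. AJUBA, a LIM protein that binds Argonautes, rose in both lines (0.69 and 0.37, adjusted p 6.91e-15 and 8.66e-08 in the authors' deposited table). FMR1, an RNA-binding protein that works with Argonaute at some targets, fell in both (-0.63 and -0.39, adjusted p 1.51e-13 and 6.00e-04 in the authors' deposited table). MOV10, an RNA helicase found with Argonaute, was called at 0.30 and 0.28 (adjusted p 0.00875 and 0.0186 in the authors' deposited table). Its call was kept in 3 of 6 fits that left out a library in MDA-MB-436, those without a siNT library, and in BoM-1833 in 1 of 6, that without siNT replicate 1.

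Loading chaperones, the HSP70 and HSP90 proteins and cochaperones that open Argonaute for the duplex, were called in 1 direction. Of 9, 4 were lower and 0 higher in MDA-MB-436, and 2 were lower and 0 higher in BoM-1833. Of all tested genes, 11.5% and 5.72% were called lower. At an unadjusted p under 0.05 there were 5 and 3, beside 4639 of 14243 and 2765 of 12906 genes tested. For this list edgeR gave the counts of calls that DESeq2 gave. Without siNT replicate 3 of MDA-MB-436, 7 were called lower. Calls rose in some other lists in that fit. Of Microprocessor and nuclear export partners 2 and 3 were called lower in it, against 0 and 1 with all libraries. Counts of deadenylation genes and Argonaute regulators stayed the same. The share of all genes called in that fit is not given here, so the rise is not particular to chaperones. HSP90AA1, the inducible HSP90, stood at 86694, 66894 and 62975 normalized counts in siNT and at 49453, 49395 and 49492 in siPHF19 of MDA-MB-436. In BoM-1833 it stood at 39870.3, 39508 and 37929.5 in siNT and at 30844, 32820.1 and 30681 in siPHF19. siNT replicate 1 of MDA-MB-436 was far above its group. HSP90AA1 had -0.55 (adjusted p 5.35e-06) and -0.31 (adjusted p 1.84e-07) in the authors' deposited table, and without that library -0.39. HSPA4, an HSP70 family exchange factor, had -0.53 and -0.29 there (adjusted p 7.61e-10 and 3.91e-06, the authors' deposited table). The median over the list was -0.16 for MDA-MB-436 and -0.06 for BoM-1833.

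Genes of the effector steps downstream of GW182 were called in both directions in MDA-MB-436. In BoM-1833 the deposited test gave 1 call, a lower one. Over all tested genes calls went both ways too, with 10.5% higher and 11.5% lower in MDA-MB-436. In BoM-1833 these shares were 5.21% and 5.72%. Of 18 deadenylation genes, 4 were called higher and 2 lower in MDA-MB-436, and of 17 tested in BoM-1833 1 was lower. In BoM-1833 edgeR called 2 of them lower. PABPC1, the cytoplasmic poly(A)-binding protein, had 0.35 and -0.02 (adjusted p 6.54e-08 and 0.918 in the authors' deposited table). PABPC1 has many pseudogenes that could share its reads. CNOT6, a catalytic deadenylase, had -0.28 and -0.26 (adjusted p 7.40e-04 and 0.0176 in the authors' deposited table), and in BoM-1833 its call was kept in 1 of 6 fits that left out a library, that without siNT replicate 1.

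Of 13 decapping, decay and repression genes, 1 was called higher and 1 lower in MDA-MB-436, while BoM-1833 had 0 by DESeq2 or edgeR. In BoM-1833 3 had an unadjusted p under 0.05, beside 2765 of all 12906 tested genes. Without siNT replicate 1 of BoM-1833, 3 were called lower there. Of small RNA tailing and turnover genes, 3 were also called lower in that fit, against 1 with all libraries. The share of all genes called in that fit is not given here, so the rise is not shown as particular to decapping genes. DCP1A, a decapping cofactor, had 0.81 and 0.21 (adjusted p 9.67e-07 and 0.196 in the authors' deposited table). GIGYF2, a translational repressor, had -0.38 and -0.22 (adjusted p 3.71e-06 and 0.104 in the authors' deposited table).

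Among 9 tested genes of small RNA tailing and turnover, ERI1 was lower in both lines. ERI1 is a 3′ exonuclease that was first described as degrading siRNAs. Its normalized count was 1432, 1395 and 1433 in siNT and 959, 931 and 868 in siPHF19 of MDA-MB-436, and 282, 350.4 and 291 in siNT and 200.6, 241 and 226 in siPHF19 of BoM-1833. Groups did not overlap in either line. ERI1 had -0.63 (adjusted p 3.16e-13, SE 0.08) and -0.47 (adjusted p 0.0143, SE 0.14) in the authors' deposited table. In BoM-1833 the call was kept in 3 of 6 fits that left out a library and lost without siNT replicate 2, siPHF19 replicate 1 or siPHF19 replicate 3. TUT4, a uridylyl transferase, had 0.24 in MDA-MB-436 (adjusted p 0.0492 in the authors' deposited table), and edgeR gave it an adjusted p of 0.0532. Of 6 fits that left out a library, only that without siNT replicate 3 kept its call.

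Calls among the upstream partners were few, but their lists are short. The MDA-MB-436 test called 22.1% of all its genes, while that of BoM-1833 called 10.9%. At such shares, lists this short cannot show a lack of calls. Of 7 Microprocessor partners of DROSHA, 0 were called in either line by DESeq2 or edgeR, with 2 and 0 at an unadjusted p under 0.05. Over all genes tested, 4639 of 14243 in MDA-MB-436 and 2765 of 12906 in BoM-1833 had such a p. Of 3 partners of DICER1, PRKRA, a double-stranded RNA-binding protein, was called lower in MDA-MB-436 (-0.25, adjusted p 0.0168 in the authors' deposited table). Of 4 nuclear export partners of XPO5, RCC1, the exchange factor of the RAN GTPase, was called lower there (-0.19, adjusted p 0.0270 in the authors' deposited table). The call of PRKRA was kept in 2 of 6 fits that left out a library (siNT replicates 1 and 3) and that of RCC1 in 1 of 6 (siNT replicate 3). Of microRNA host transcripts, 0 of 8 tested in MDA-MB-436 and 0 of 7 in BoM-1833 were called by DESeq2 or edgeR, with 1 and 0 at an unadjusted p under 0.05. Of 4 PIWI genes, the germline relatives of the Argonautes, 1 was tested in MDA-MB-436, where it was not called, and 0 in BoM-1833.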

How the data were processed

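The members and the gene lists were chosen with earlier results of these data known, so no pattern here is independent support for another. Per the submitters' processing notes, reads were processed with STAR, RSEM 1.3.1 and DESeq2 1.46.0 on hg38; the gene annotation, the counting settings and the use of strand are not given in the sources used here. The authors deposited 1 DESeq2 table per line. The deposited library columns hold a signal, which the authors made by dividing the reads of a library by 1 size factor (normalized counts). The deposited log2 fold changes and standard errors, the Wald statistic (a score), p-values and adjusted p-values are the authors' own.

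In 100% of values the deposited library columns were whole multiples of 1 step (tolerance 0.01), so reads were recovered. DESeq2 1.42.0 on these reads gave the authors' counts of calls, 3143 and 1411. Chi-square per degree of freedom between replicates was 2.32 to 25.5, above the sampling noise of 1 library deposited again. Columns of no sample numbered 0. Gene names turned into dates, 28 of them, were kept in the fits.

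The main test was the deposited Wald test at an adjusted p under 0.05; the lines were compared with z on the deposited estimates, Benjamini-Hochberg adjusted over all genes. Alternatives were edgeR 4.0.16 (quasi-likelihood), limma 3.58.1 on log2(normalized count + 1, 0.5 or 8) with a mean of at least 10, DESeq2 with TMM factors, without independent filtering, with a minimum of 10 reads in 3 libraries, with the replicate number as a block, and without each library. The length offset (lowess, span 0.3) was added after seeing the data. Tested on simulated MDA-MB-436 reads, DESeq2 found 99.5% of 200 genes with a log2 change of 1, with 22 false calls among 13878 genes. That change exceeds the deposited estimate of every member, and no length trend between libraries was simulated. Power for changes as small as those of the members was therefore not tested. Same-numbered siNT and siPHF19 libraries did not deviate together. Positions, UTRs and lengths come from GENCODE annotation of GRCh38, the longest principal transcript of a gene. The text names PHF19, all members and, from each partner list, the 2 genes with the largest absolute Wald statistic in either line among those called in both lines, filled up from those called in 1 line; exceptions are named as such.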

Additional observations from a re-analysis of the deposited data

Results flagged for a closer look

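Of the partners of the small RNA machinery named above, 4 changed differently in MDA-MB-436 and BoM-1833 by the z test of the difference itself. Each had the higher log2 fold change in MDA-MB-436. By the same test 4.89% of all 12290 genes tested in both lines were called. At most 84 partners, those tested in BoM-1833, could enter it, so a count of 4 is near that share. For ANKRD52, the PP6 phosphatase subunit, the log2 fold changes differed by 0.72 (adjusted p 1.92e-08 by z), and 12 of 12 fits without a single library kept the call. PABPC1, the poly(A)-binding protein that TNRC6A contacts, differed by 0.37 (adjusted p 2.75e-04 by z), also in 12 of 12. DCP1A differed by 0.60 (adjusted p 0.0220 by z), with the call kept in 5 of 12 such fits (those without siNT replicate 2 or 3 or siPHF19 replicate 3 of MDA-MB-436, or siNT replicate 1 or siPHF19 replicate 1 of BoM-1833; adjusted p 0.00312 to 0.120 by z over all 12), and the joint edgeR fit gave an adjusted p of 0.0511. AJUBA differed by 0.32 (adjusted p 0.0424 by z), with the call kept in 3 of 12 (those without siNT replicate 3 of MDA-MB-436 or siNT replicate 1 or 3 of BoM-1833; adjusted p 0.00652 to 0.247 by z over all 12), and the joint edgeR fit gave 0.0525. Groups of 3 libraries were not tested for outlying samples.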

How the results depend on the processing

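In MDA-MB-436 the calls of AGO4 and TNRC6A were kept in each alternative run. The number of members called there was 6 with the length offset and 2 to 5 without single libraries, and that of partners 14 to 34. In BoM-1833 0 members were called by edgeR, by limma with each of its 3 pseudocounts, with the replicate block, and with the length offset and block together (4 at an unadjusted p under 0.05 in the deposited test), 3 with the length offset, and 0 to 3 without single libraries; partners numbered 6 to 17. Members that differed between lines numbered 0 to 1 without single libraries and 0 otherwise. Correlations of the deviations of same-numbered libraries from their group means were -0.07, -0.05 and -0.10 in MDA-MB-436. In BoM-1833 they were -0.23, -0.14 and -0.19. Deviations within a group of 3 are tied to each other, so these values cannot show whether same-numbered libraries were set up together. With the replicate block 2 members and 13 partners were called in MDA-MB-436 and 0 and 6 in BoM-1833. In the joint DESeq2 fit with the block, the differences between lines of DCP1A (adjusted p 0.134) and AJUBA (adjusted p 0.194) were no longer called, and those of ANKRD52 (1.09e-05) and PABPC1 (0.00906) were. In BoM-1833 signs turned with the length offset, and with offset and block, for AGO1 (0.0678 and 0.067), TNRC6B (0.0278 and 0.0295) and TNRC6C (0.0098 and 0.0091). Without single libraries AGO1 ranged from -0.0954 to 0.0817, AGO3 from -0.0185 to 0.17, TNRC6B from -0.21 to 0.0433, TNRC6C from -0.0984 to 0.0103, PABPC1 from -0.0409 to 0.0106 and TUT4 from -0.0083 to 0.0988 there. The cause was not tested. Of the members' values under all alternatives, 282 kept direction and side of the threshold, 18 lost a call, 9 gained one and 11 turned sign; of the named partners' values 427, 49, 2 and 2 did.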
